A study of Mus musculus with 8 samples.

Results

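Fibronectin, elastin, the fibrillins, fibulin-5 and 5 further secreted matrix genes were followed through the first days of factor-driven reprogramming. The group holds 10 genes, chosen by symbol: Fn1, Spp1, Cthrc1, Postn, Tnc, Sparc, Fbn1, Fbn2, Eln and Fbln5. All 10 were found among the 32108 genes of the table, and all 10 passed the filter on low values, as did 15358 genes in all. The cells were 4F2A mouse embryonic fibroblasts (MEFs), in which doxycycline switches on a single cassette of Oct4, Sox2, Klf4 and c-Myc. Per the labels they came from homozygous embryos at 13.5 dpc, and all groups, D2 included, were kept in doxycycline (2 µg/mL, added on day 0), with 1000 U/mL LIF, 2-mercaptoethanol and serum replacement in the medium. RNA was taken on days 2, 4, 6 and 8 (groups D2, D4, D6 and D8, all titled Ctr), with 2 libraries each and 8 in all. No sample of day 0 and none without doxycycline was analysed here, so each change is a change between days of induction.

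These genes encode proteins of the extracellular matrix. Fibronectin is assembled by cells into fibrils through integrins that bind its RGD site, and it is a hallmark of the mesenchymal state that fibroblasts leave during reprogramming. Elastic fibres have a core of cross-linked elastin laid down on microfibrils, which the fibrillins build, and fibulin-5 helps to place elastin on them. Matricellular proteins such as tenascin-C, periostin, osteopontin and SPARC are secreted into the matrix and act mainly as signals to cells rather than as structural parts.

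By D8 the group had split into genes that fell (Fn1, Spp1, Tnc, Fbn2, Cthrc1, Fbln5 and, by 1.18-fold and 1.23-fold, Sparc and Fbn1, of which Fbn1 had a change of 0.09 after quantile normalization) and genes that rose (Eln and Postn). Spp1 fell 16.5-fold, Tnc 7.32-fold, Fbn2 4.16-fold and Fn1 3.63-fold from D2 to D8, as ratios of mean CPM (a count per 1000000 counted reads). Over the same span Eln rose 9.75-fold and Postn 4.16-fold. Spp1, Tnc and Fn1 had fallen by D4 and again by D6, Fbn2 and Cthrc1 fell from D4 on, and Eln had reached its later level by D4.

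Start sites of 6 of the 10 genes were in the RefSeq promoter table (build GRCm38.p6), with 10 starts in all. Fn1, Cthrc1, Eln and Fbn2 had no entry. The 4 stretches below, each of 250 bases before a start, are shown because they belong to the genes with the steepest falls, Spp1 and Tnc, and to Postn, which rose. Tnc and Postn each have a further start that is not printed: that of Tnc overlaps the stretch shown and holds the same matches, and that of Postn, farther upstream, holds no match to any motif searched. Capitals mark matches, on either strand, to the TATA box letters TATAAA and to the octamer ATGCAAAT, which Oct factors bind. The motifs were chosen after the promoters had been seen. The first Spp1 stretch (chr5:104434861-104435110, plus strand) lies just upstream of the gene. The second (chr5:104435942-104436191, plus strand) lies in an intron of the annotated gene, before a RefSeq start 1074 bases downstream of the GENCODE start. The Tnc stretch (chr4:64047016-64047265, minus strand) and the Postn stretch (chr3:54360857-54361106, plus strand) lie upstream of their genes.
Spp1, upstream start: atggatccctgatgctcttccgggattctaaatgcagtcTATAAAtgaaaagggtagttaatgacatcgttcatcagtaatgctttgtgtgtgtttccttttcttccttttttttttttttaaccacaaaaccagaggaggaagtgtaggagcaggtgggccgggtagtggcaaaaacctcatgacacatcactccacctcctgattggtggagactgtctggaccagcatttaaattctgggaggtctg
Spp1, intronic start: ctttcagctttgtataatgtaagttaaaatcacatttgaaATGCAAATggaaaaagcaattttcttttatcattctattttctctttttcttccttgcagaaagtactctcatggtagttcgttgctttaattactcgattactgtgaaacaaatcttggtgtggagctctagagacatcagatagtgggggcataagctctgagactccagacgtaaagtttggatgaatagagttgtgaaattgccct
Tnc: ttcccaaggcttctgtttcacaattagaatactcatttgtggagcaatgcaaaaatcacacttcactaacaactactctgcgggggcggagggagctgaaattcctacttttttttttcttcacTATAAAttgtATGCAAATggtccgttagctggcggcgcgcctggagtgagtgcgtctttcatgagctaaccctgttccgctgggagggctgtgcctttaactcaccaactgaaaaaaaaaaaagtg
Postn: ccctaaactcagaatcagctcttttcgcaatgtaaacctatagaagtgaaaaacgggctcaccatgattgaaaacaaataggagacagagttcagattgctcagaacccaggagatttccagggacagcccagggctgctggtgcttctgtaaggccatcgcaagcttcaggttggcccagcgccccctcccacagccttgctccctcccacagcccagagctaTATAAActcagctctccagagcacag
The octamer stood 116 to 109 bases before the Tnc start and 210 to 203 bases before the intronic Spp1 start. Of all 32851 promoters, searched over the same 250 bases, 1.6% held the octamer and 12.4% held TATAAA. In the Postn stretch TATAAA stood 26 to 21 bases before the start. It stood farther off in the other 2 cases, 126 to 121 bases before the Tnc start and 211 to 206 before the upstream Spp1 start. Only the exact letters were searched. The Tnc stretch not printed holds tataag close to its start, which differs from TATAAA in the last letter. The other motifs searched were CATTGTT (SOX), GGGNGTGG (KLF), CACGTG (E-box) and TGANTCA (AP-1), and they had no match in these 4 stretches. Of all 10 starts 3 held the octamer, and those of Sparc, Fbn1 and Fbln5 did not. GGGNGTGG matched 167 to 160 and 138 to 131 bases before the Fbn1 start, and 68 to 61 before 1 Fbln5 start. Those stretches lie inside the annotated genes, and 15.9% of all promoters held GGGNGTGG. Such matches describe the letters only.

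Depth was 19.41 to 20.16 (in units of 1000000 counted reads) per library. A count of 0 allows a level up to that of 3 reads, 0.149 to 0.155 CPM (counting error only), and each mean of the 10 genes rests on at least 489 reads. Changes are differences of mean log2(CPM + 1), and calls rest on limma's moderated test, with adjustment over all 15358 genes and a threshold of 0.05. The labels speak of 2 parallel replicates and name no separate cultures or embryos behind them. The p-values therefore set each change against a replicate spread that may be purely technical. Fewer cells of a type and less RNA per cell cannot be told apart in bulk RNA. Xist stood at 702 to 1238 CPM and 4 genes of the Y chromosome (Uty, Eif2s3y, Kdm5d, Ddx3y) at no more than 0.333 CPM in every library, against the label of male embryos. Fibroblast markers were present in every library, with the collagen gene Col1a1 at 10848 to 18029 CPM and the surface marker Thy1 at 332 to 536 CPM. Of 10 such markers 4 were called higher and 3 lower in D8 against D2, beside 47.3% and 23.1% of all tested genes. The higher ones were Dcn (3.12 on the log2 scale), Pdgfra (2.83), Col3a1 (2.07) and Twist1 (0.34). The lower ones were Twist2 (-0.69), Thy1 (-0.46) and Pdgfrb (-0.25). Nanog, of the pluripotent state, lay at 0.252 to 0.569 CPM, and Fgf4, the most abundant of 8 pluripotency markers, at 1.69 to 7.88 CPM.

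Each of the 10 genes passed limma's F test for any difference among the days (adjusted p from 1.9e-13 for Eln to 6e-04 for Fbn1), where 80.4% of all tested genes did. In D4 against D2, 3 of the 10 were called higher and 4 lower, beside 40.9% and 21.7% of all tested genes. In D6 against D4, 0 were higher and 9 lower, beside 25.2% and 12.6%. That 0 in limma's test is also 0 at an unadjusted p under 0.05, and no other tool was run. In D8 against D6, 1 was higher and 2 lower, beside 4.72% and 4.39%. Over the whole span, D8 against D2, 2 were higher and 8 lower, beside 47.3% and 23.1%. The median change of the 10 was 0.00, -0.53, -0.15 and -1.32 on the log2 scale in these 4 comparisons, and that of all tested genes was 0.11, 0.07, 0.00 and 0.17. The median of all genes is thus above 0 in D4 against D2, D6 against D4 and D8 against D2. Against it the falls of the 10 genes are larger and the rises smaller by that much. The scaling set the split of all calls: 65.3%, 66.7% and 67.2% of calls were higher in D4 against D2, D6 against D4 and D8 against D2, but 52%, 48.7% and 51.4% after median-of-ratios scaling and 47.1%, 47.7% and 45.1% after quantile normalization.

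**Figure D1:**
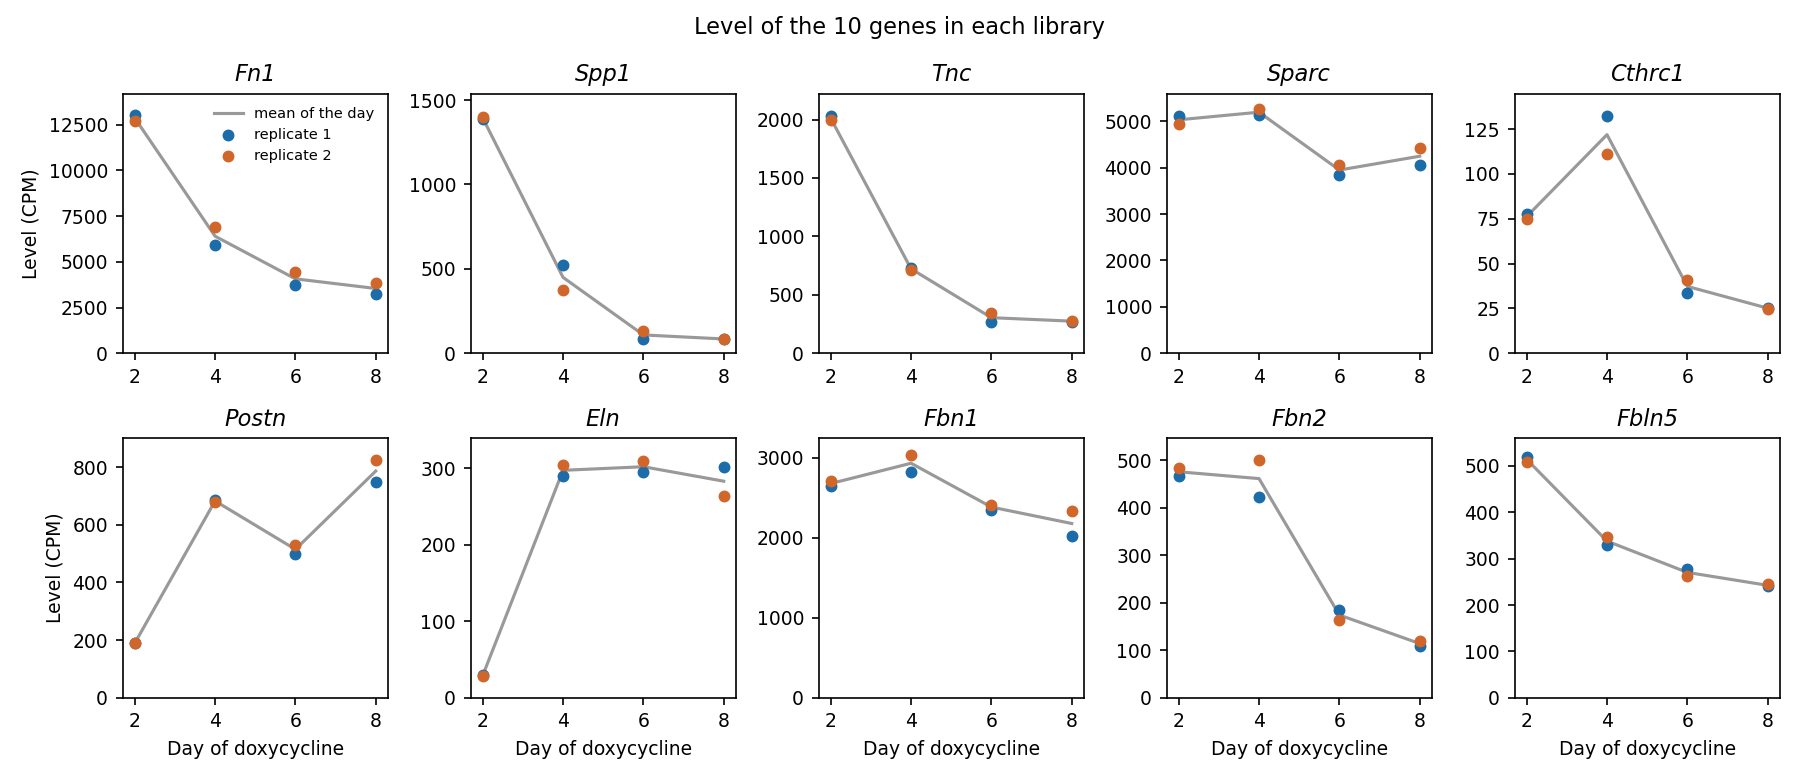
Level of each gene (vertical axis, CPM from 0) on the 4 days of doxycycline (horizontal axis), with 1 point per library and a line through the mean of the 2 libraries. Fn1, Spp1 and Tnc drop from their D2 level at once, Eln and Postn rise between D2 and D4, and Cthrc1 is highest on D4.

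Fn1 encodes fibronectin (ENSMUSG00000026193, mm10 chromosome 1, 71585520 to 71653200, minus strand). Its level was 13032.5 and 12686 CPM in the D2 libraries, 5909 and 6886 in D4, 3709.6 and 4423 in D6, and 3258 and 3822 in D8. The D2, D4 and D6 libraries did not overlap, while those of D6 and D8 did. Fn1 fell by 1.01 on the log2 scale to D4 (SE 0.11, adjusted p = 2.5e-06) and by a further 0.66 to D6 (SE 0.11, adjusted p = 3.9e-04). From D6 to D8 the change was -0.20 (SE 0.11, adjusted p = 0.26). It had been the most abundant of all genes by CPM on D2 and ranked 16 on D8. The antisense gene Apol7d overlaps Fn1, and it moved with it: its level was 141.9 to 144.5 CPM in D2 and 28.6 to 44.3 CPM in D8, or 0.877% to 1.17% of the Fn1 level in each library. The strand setting of the counting is not given in the sources used here, so reads of the 2 genes cannot be told apart. The table holds 1 value per gene, so the spliced forms of fibronectin were not separated.

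Spp1 encodes osteopontin, a secreted phosphoprotein that binds integrins and CD44 (ENSMUSG00000029304, chromosome 5, 104435118 to 104441050, plus strand). Its libraries held 1389 and 1399.9 CPM on D2, 524 and 375 on D4, 86.6 and 130.4 on D6, and 82.5 and 86.7 on D8. Both D2 libraries were far above all others, and the lower D6 library lay within the D8 values. The fall was 1.65 on the log2 scale to D4 (SE 0.16, adjusted p = 1e-06) and 2.05 from D4 to D6 (SE 0.16, adjusted p = 9.3e-07). By D8 6.07% of the D2 level was left. The replicates of D4 and D6 differed by 1.4-fold and 1.51-fold, the widest gaps among the 10 genes. From D6 to D8 the change was -0.33 (adjusted p = 0.21), and without D6 replicate 1 it was -0.62 (adjusted p = 0.032, in limma's test; 0.032 to 0.92 over 16 alternatives).

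Osteopontin is also made by macrophages and bone cells, so their markers stand beside it. Of 10 macrophage markers all 10 reached 1 CPM in at least 1 library, and they summed to 78.1 to 108 CPM on D2 and 75.8 to 91.7 on D8. Ptprc, the pan-leukocyte phosphatase, lay at 2.15 to 3.38 CPM, the macrophage receptor gene Csf1r at 7.54 to 11.2 and lysozyme gene Lyz2 at 34.6 to 52.4 CPM. The sums of D2 and D8 overlapped. Of 8 osteoblast and chondrocyte markers 4 reached 1 CPM, and the sum was 62.8 to 65.6 CPM on D2 and 72.3 to 80.5 on D8. The osteoblast factor gene Sp7 was at most 0.595 CPM, and Bglap, osteocalcin with near-identical copies nearby, rose from 1.3 ± 0.162 to 13.9 ± 1.45 CPM (SD, n = 2) from D2 to D8. Over the same span Col2a1, a cartilage collagen gene, rose from 6.71 ± 0.722 to 29 ± 6.43 CPM, and Runx2, a bone cell factor gene, fell from 40.6 ± 1.77 to 18.6 ± 0.76 CPM. The part of macrophages and bone cells in the fall of Spp1 was not tested.

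Tnc encodes tenascin-C, a hexameric glycoprotein of wounds and embryonic mesenchyme (ENSMUSG00000028364, chromosome 4, 63959785 to 64047015, minus strand). It stood at 2029 and 1994 CPM on D2, 729 and 716 on D4, 265 and 344 on D6, and 269 and 280.1 on D8. The D2 and D4 libraries were each apart from all others, and both D8 libraries lay between the D6 libraries. Tnc fell by 1.48 on the log2 scale to D4 (SE 0.087, adjusted p = 9.8e-09) and by 1.26 to D6 (SE 0.087, adjusted p = 4.4e-07). The change from D6 to D8 was -0.14 (adjusted p = 0.35), -0.32 without D6 replicate 1 (adjusted p = 0.016) and 0.05 without D6 replicate 2 (adjusted p = 0.68), which are also the ends of the range over 16 alternatives in limma's test.

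Smooth muscle genes fell in the same step as Fn1, Spp1 and Tnc. Of 8 smooth muscle markers 1 was called higher and 7 lower in D4 against D2, beside 40.9% and 21.7% of all tested genes. In D8 against D2, 0 were called higher (also 0 at an unadjusted p under 0.05) and 8 lower, beside 47.3% and 23.1%. The sum of the 8 went from 3196 to 3302 CPM on D2 to 737 to 759 CPM on D4. It was 896 to 1070 CPM on D8. Acta2, the smooth muscle actin gene, was the most abundant at 507 to 2448 CPM, and Myh11, the smooth muscle myosin, lay at 2.46 to 13.6 CPM. Bulk RNA does not show which cells expressed these markers, and the part of any smooth muscle cells in the falls was not tested. Endothelial markers Pecam1 and Cdh5 reached at most 1.29 and 0.448 CPM, while Tek, which made up most of the endothelial sum, rose from 65.3 ± 1.31 to 162 ± 1.78 CPM (SD, n = 2) from D2 to D8. Of the 5 endothelial markers tested 3 were called higher and 2 lower over that span, beside 47.3% and 23.1% of all tested genes. The 2 lower were Kdr (4.32 to 1 CPM) and Egfl7 (2 to 0.634 CPM, as means). Of the 5 epithelial markers tested 4 were called higher and 1 lower in D8 against D2, beside the same 47.3% and 23.1%. The keratin gene Krt8, highest of them on D8, rose from 2.4 ± 0.336 to 125 ± 13 CPM, and Krt19, highest on D2, fell from 31.1 ± 0.367 to 4.14 ± 0.705 CPM, while Epcam was at most 0.974 CPM. The glial factor gene Sox10 reached 0.564 CPM at most.

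Sparc encodes SPARC, also called osteonectin, which binds collagen and calcium (ENSMUSG00000018593, chromosome 11, 55394500 to 55423183, minus strand). Its libraries held 5115 and 4949.7 CPM on D2, 5132 and 5261 on D4, 3834 and 4065 on D6, and 4064 and 4431 on D8. The D2 and D4 libraries were higher than those of D6 and D8. It fell by 0.40 on the log2 scale from D4 to D6 (SE 0.072, adjusted p = 8.8e-04), a fall of 0.12 after quantile normalization (adjusted p = 0.15, the highest of 16 alternatives in limma's test, from 4e-04). Over the whole span it fell by 0.25 (SE 0.072, adjusted p = 0.0077). This last call was lost without D2 replicate 1 (adjusted p = 0.098), without D8 replicate 1 (0.05) and without the filter (0.065), within a range of 4.1e-05 to 0.098 over the alternatives. From D2 to D4 the change was 0.05 (adjusted p = 0.59), and -0.38 after quantile normalization (adjusted p = 1.9e-04; up to 0.88 over the 16 alternatives).

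Cthrc1 encodes a secreted protein with a collagen repeat, made by activated fibroblasts (ENSMUSG00000054196, chromosome 15, 39076932 to 39087121, plus strand). It was at 77.8 and 74.7 CPM on D2, 133 and 111 on D4, 33.5 and 41.1 on D6, and 25.4 and 24.9 on D8. No 2 days overlapped. It rose by 0.67 on the log2 scale to D4 (SE 0.092, adjusted p = 3.3e-05) and fell by 1.68 to D6 (SE 0.092, adjusted p = 7.3e-08). A further fall of 0.54 came by D8 (adjusted p = 0.0044), and it was not called without the filter on low values (adjusted p = 0.083, from 0.002 over 16 alternatives).

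Postn encodes periostin, a partner of collagen and tenascin-C in the matrix (ENSMUSG00000027750, chromosome 3, 54361109 to 54391037, plus strand). Its values were 189.6 and 189 CPM on D2, 687 and 678 on D4, 499 and 530.3 on D6, and 747 and 826 on D8. The days did not overlap, with D2 lowest and D6 a dip between D4 and D8. Postn rose by 1.85 on the log2 scale to D4 (SE 0.055, adjusted p = 1.8e-11), fell by 0.41 to D6 (SE 0.055, adjusted p = 1e-04) and rose by 0.61 to D8 (SE 0.055, adjusted p = 8.7e-05). It was the only one of the 10 called higher from D6 to D8.

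Eln encodes tropoelastin, the soluble unit of elastin (ENSMUSG00000029675, chromosome 5, 134702593 to 134747323, minus strand). It stood at 29.4 and 28.7 CPM on D2, 290.0 and 305 on D4, 295 and 309 on D6, and 302 and 264 on D8. Both D2 libraries were low, and the libraries of the 3 later days overlapped. The rise to D4 was 3.31 on the log2 scale (SE 0.061, adjusted p = 4.8e-13). The changes after it were 0.02 to D6 (SE 0.061, adjusted p = 0.8) and -0.10 to D8 (SE 0.061, adjusted p = 0.35).

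Fbn1 and Fbn2 encode fibrillin-1 and fibrillin-2, the latter known mainly from embryonic tissue. Fbn1 (ENSMUSG00000027204, chromosome 2, 125300594 to 125507993, minus strand) was at 2650.1 and 2704 CPM on D2, 2822 and 3040.2 on D4, 2353 and 2414 on D6, and 2025 and 2331 on D8. Fbn2 (ENSMUSG00000024598, chromosome 18, 58008623 to 58210487, minus strand) was at 467 and 484 CPM on D2, 421 and 501 on D4, 184 and 164 on D6, and 108 and 120.1 on D8. The Fbn2 libraries of D2 and D4 overlapped, and those of D6 and D8 were each lower. Fbn2 fell by 1.40 on the log2 scale from D4 to D6 (SE 0.079, adjusted p = 9.5e-08) and by 0.60 to D8 (SE 0.079, adjusted p = 9.1e-04). The second call was lost without the filter on low values (adjusted p = 0.058, from 1.9e-04 over 16 alternatives). Fbn1 fell by 0.30 from D2 to D8 (SE 0.073, adjusted p = 0.0023), with a change of 0.09 after quantile normalization (adjusted p = 0.18; from 1e-04 over 16 alternatives). Its fall of 0.30 from D4 to D6 (adjusted p = 0.0064) was not called without the filter (adjusted p = 0.068) or after quantile normalization (0.078), where the lowest of the alternatives was 0.0018.

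The ratio of Fbn1 to Fbn2 CPM does not depend on library scaling. It was 5.68 and 5.59 in the D2 libraries, 6.7 and 6.07 in D4, 12.8 and 14.7 in D6, and 18.7 and 19.4 in D8. The ratio was similar on D2 and D4 and higher on D6 and again on D8, with no overlap between any of the days. The 4 days differed in an exact permutation test of the F statistic over all divisions of the libraries into pairs (p = 0.00952, the smallest it can give). That test was chosen with earlier results of these data known, and its replicates may be purely technical. From D2 to D8 the means of the ratio differed 3.38-fold, a pair of days that was not tested on its own.

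**Figure D2:**
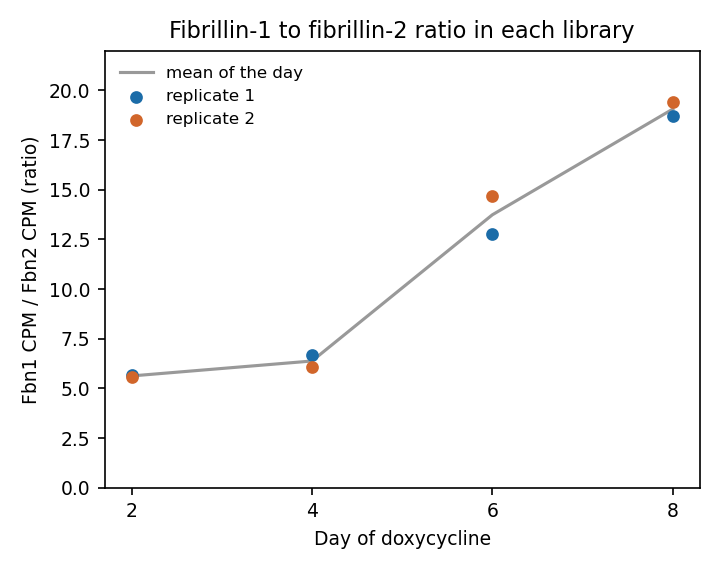
Ratio of Fbn1 CPM to Fbn2 CPM (vertical axis, from 0) in each of the 8 libraries on the days of doxycycline (horizontal axis), with a line through the mean of each day. The ratio is between 5.59 and 6.7 in the D2 and D4 libraries and between 12.8 and 19.4 in those of D6 and D8.

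Fbln5 encodes fibulin-5 (ENSMUSG00000021186, chromosome 12, 101746565 to 101819055, minus strand). It was at 519 and 509 CPM on D2, 329 and 347 on D4, 277 and 264 on D6, and 241 and 244 on D8. The days did not overlap, and each was lower than the one before. The falls were 0.60 to D4 (SE 0.048, adjusted p = 1.9e-07) and 0.32 to D6 (SE 0.048, adjusted p = 2.3e-04) on the log2 scale. The change to D8 was -0.16 (adjusted p = 0.064), and it was called when D4 replicate 1 or D4 replicate 2 was left out of the shared fit (adjusted p = 0.04 in both, and up to 0.29 over 16 alternatives). Fbln5 thus fell from D2 to D4 in the same libraries in which Eln rose.

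**Figure D3:**
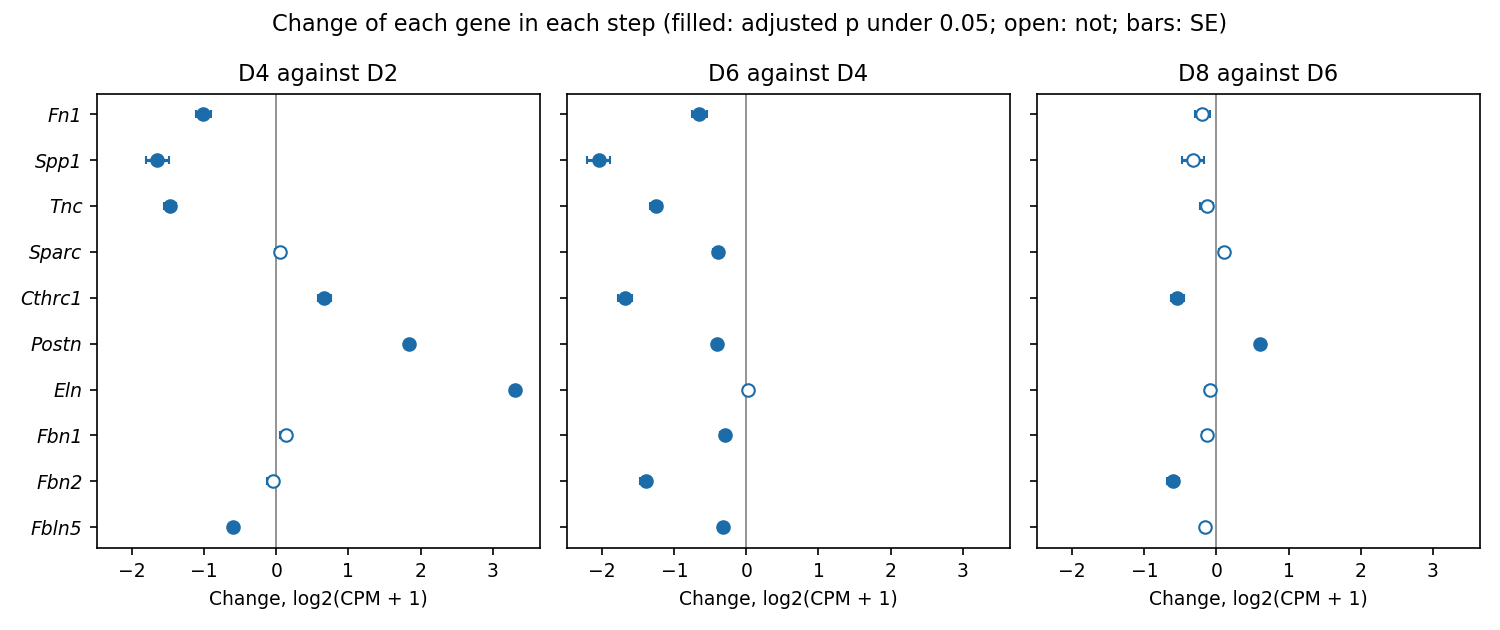
Change of each gene in D4 against D2, D6 against D4 and D8 against D6 (horizontal axis, difference of mean log2(CPM + 1), with SE). Filled points passed limma's adjusted p of 0.05 and open points did not: 7 of the 10 are filled in the first step, 9 in the second and 3 in the last.

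The 10 genes together held 2.5% to 2.55% of the counted reads on D2, 1.7% to 1.82% on D4, 1.15% to 1.27% on D6 and 1.11% to 1.24% on D8. Fn1 alone made 50.7% to 51.1% of this sum on D2 and 29.3% to 30.7% on D8. Levels of different genes were compared per kilobase of annotated exon. On that scale Sparc was highest of the 10 on every day, at 1328 ± 30.8 CPM per kilobase on D2 and 1121 ± 68.5 on D8 (SD, n = 2), and Fn1 was next, at 1100.5 ± 21 and 303 ± 34.1. Spp1 went from the third place on D2 (846 ± 4.88 CPM per kilobase) to the fifth on D8 (51.3 ± 1.79). Eln was last on D2 at 3.59 ± 0.0634 CPM per kilobase, and Fbn2 was last on the 3 later days, at 8.64 ± 0.633 on D8. Fbn2 and Eln did not differ beyond their spread on D4 (34.9 ± 4.23 and 36.7 ± 1.29), nor did Tnc and Fbln5 on D6 (39.2 ± 7.12 and 39.1 ± 1.38), and Tnc, Fbln5 and Eln did not on D8 (35.3 ± 0.996, 35.1 ± 0.39 and 35 ± 3.31). With the length of the longest coding transcript in place of all exons, Sparc and Fn1 stayed first and second and Fbn2 last on D8, while Postn and Eln moved up to the third and the fifth place of that day. On this second scale Eln was no longer level with the others. Its mean on D4 was 77.2 CPM per kilobase and that of Fbn2 41.8. On D8 Eln was at 73.5, Tnc at 38.6 and Fbln5 at 41.6.

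Profiles most like those of the 10 genes were sought among 13329 other named genes, by the root-mean-square difference of log2(CPM + 1), centred per gene, over the 8 libraries. The nearest to Fn1 were Nuak1, a kinase gene, and Itga5, which encodes the alpha chain of the main fibronectin receptor, at 0.094 and 0.097 on the log2 scale. Ptgs2, the inducible cyclooxygenase, was nearest both to Tnc (0.11) and, from farther, to Spp1 (0.49). Gpr176 (0.15) came next for Tnc and the thrombospondin gene Thbs1 (0.5) for Spp1. For Postn they were Tgfbr3, a TGF-beta coreceptor, and H19 (0.16 each), and for Eln they were Parp14 and Gpm6b (0.16 each). Cthrc1 was nearest to Masp1 (0.25) and then to Fbn2 (0.31), and Fbn2 to Col10a1 and S1pr1 (0.23 each). Sparc lay near Phf10 and Kdelr2, Fbn1 near Lama2 and Glg1, and Fbln5 near Runx1 and Myof, all at 0.033 to 0.041. Many genes share such courses over 4 days.

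Relatives of these genes were taken from 4 lists. The first holds other matricellular genes, of which 18 of 26 passed the filter. In D4 against D2, 10 rose and 6 fell, in D6 against D4 5 rose and 11 fell, and in D8 against D2 10 rose and 6 fell. Of all tested genes 40.9% rose and 21.7% fell in the first of these comparisons, 25.2% and 12.6% in the second and 47.3% and 23.1% over the span. The list's median change over the span was 0.28 on the log2 scale, beside 0.17 for all genes. Thbs1, thrombospondin-1, was at 10469 and 10379 CPM on D2 and 1043 and 1174 on D8, with the D8 libraries far lower (a fall of 3.24 on the log2 scale, adjusted p = 1.1e-12). Ccn2, a growth factor-binding matricellular protein, fell by 3.29 from D2 to D8 (adjusted p = 1.1e-12), to 71.2 and 66.5 CPM from 711 and 657. Its relative Ccn1 had the largest change of the list from D4 to D6, from 284 and 301 to 77.5 and 76.2 CPM. The tenascins moved apart: Tnxb, tenascin-X, rose from 4.76 and 4.35 CPM on D2 to 46.8 and 51 on D8 (3.17 on the log2 scale, adjusted p = 1e-11), and Tnn, tenascin-N, rose from 10.1 and 13 to 112 and 108 CPM by D4 (3.15, adjusted p = 5.2e-10), while Tnc fell. Comp, a thrombospondin of cartilage and tendon, was at 0.149 and 0.199 CPM on D2, at the level of 3 reads, and at 4.59 and 5.54 CPM on D8.

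The second list holds partners of elastin and the fibrillins, with 23 of 25 tested. In D4 against D2, 11 rose and 8 fell, in D6 against D4 6 rose and 11 fell, and in D8 against D2 10 rose and 9 fell, with a median of 0.07 over the span. The shares of all tested genes were 40.9% and 21.7%, 25.2% and 12.6%, and 47.3% and 23.1%. Mfap4, a microfibril-associated glycoprotein that binds elastin, had the largest rise, from 3.82 and 4.38 CPM on D2 to 50.9 and 59.6 on D4 and 132 and 125 on D8 (4.66 on the log2 scale from D2 to D8, adjusted p = 6.4e-14). Mfap5, another microfibril protein, rose in each step, from 54.4 and 50.4 CPM on D2 to 259 and 217 on D8. Hmcn1, the fibulin relative hemicentin-1, rose from 28.5 and 27.4 to 158 and 193 CPM. Mfap2 and Fbln1, microfibril and fibulin genes picked after their values were seen, rose by 2.22 and 2.06 to D4 and by 2.17 each from D2 to D8. Fbln2, Efemp2 and Lox, picked in the same way, went down. Their changes were -0.81, -0.46 and -0.47 to D4 and -1.43, -0.87 and -0.35 from D2 to D8. Loxl4, a lysyl oxidase relative of the enzymes that cross-link elastin and collagen, fell from 226 and 217 CPM to 23.3 and 27.4 (3.08 lower on D8, adjusted p = 4e-12). Eln, Mfap4, Mfap2, Hmcn1 and Fbln1 each rose most between D2 and D4, a step in which 8 of the 23 tested genes of the list fell.

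Receptors of fibronectin and matricellular proteins form the third list, with 19 of 20 tested. In D8 against D2, 2 rose and 15 fell, with a median of -0.40, beside 47.3% and 23.1% of all tested genes and their median of 0.17. In D4 against D2, 4 rose and 8 fell, and in D6 against D4 1 rose and 11 fell, beside 40.9% and 21.7%, and 25.2% and 12.6%, of all genes. The alpha-5 chain gene Itga5 stood at 449 and 439.6 CPM on D2 and 132 and 142 on D8, a fall of 1.69 on the log2 scale (adjusted p = 1.3e-11), beside 1.87 for Fn1. Its partner chain Itgb1 fell by 1.45 in the first step, from 2530.3 and 2484 to 928 and 907 CPM (adjusted p = 1.2e-10), and by 1.63 to D8. Sdc4, a syndecan that binds the heparin sites of fibronectin, fell from 192 and 201 CPM to 74.7 and 77.4 by D8. Itga4, the alpha-4 chain, had the largest fall from D4 to D6, from 55.7 and 50.3 to 26.5 and 26.3 CPM. The 2 risers over the whole span were Cd47, a thrombospondin receptor, and Cd36, which also binds it, both picked after their values were seen. Cd47 rose from 76.1 and 75.8 CPM to 155.5 and 149 (adjusted p = 2.2e-09). Cd36 was at 2.58 and 5.68 CPM on D2 and 6.29 and 7.43 on D8 (adjusted p = 0.017). Only 1 receptor gene was called higher over the span without D2 replicate 1, without D8 replicate 2, without the filter, after median-of-ratios scaling or without the trend. The 1 call higher in D6 against D4 was lost in 10 of 16 alternatives. Stab1, a scavenger receptor for SPARC, fell by 0.64 from D6 to D8 (adjusted p = 0.028), from 11.7 ± 1.52 to 7.24 ± 2.01 CPM (SD, n = 2).

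Enzymes of folding, maturation and cross-linking form the last list, with all 20 tested. In D4 against D2, 9 rose and 8 fell, in D6 against D4 4 rose and 9 fell, and in D8 against D2 5 rose and 11 fell, with a median of -0.25. All tested genes had 40.9% and 21.7%, 25.2% and 12.6%, and 47.3% and 23.1% in these comparisons. The prolyl hydroxylase chains P4ha1 and P4ha2 fell by 1.69 and 1.40 on the log2 scale from D2 to D8, and P4ha1 went from 402 and 376 to 126 and 115 CPM in the first step alone. Plod1, a lysyl hydroxylase, fell from 189 and 180.4 to 69.9 and 74.5 CPM over the span. Pcolce2, an enhancer of procollagen processing, rose from 53.1 and 47.7 CPM on D4 to 87.7 and 87.5 on D6. Tgm2, the transglutaminase that cross-links fibronectin, fell from 198 and 225 CPM on D6 to 136 and 134 on D8 (0.64 lower, adjusted p = 9e-05).

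In the last step the counts moved with single libraries, as did the calls over all tested genes. In D8 against D6 the matricellular list had 4 higher and 0 lower, the elastic fibre list 3 and 5, the receptors 0 and 8, and the enzymes 0 and 7 (limma), beside 4.72% higher and 4.39% lower of all tested genes. At an unadjusted p under 0.05 the counts given as 0 were 3 lower for the matricellular list, 1 higher for the receptors and 1 higher for the enzymes. Leaving out 1 library of D2, D6 or D8 gave fewer higher calls in the matricellular list and fewer lower calls in the other lists. Calls over all tested genes were also fewer in these fits. Leaving out either D4 replicate left these list counts the same or larger, and calls over all tested genes were more.

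**Figure D4:**
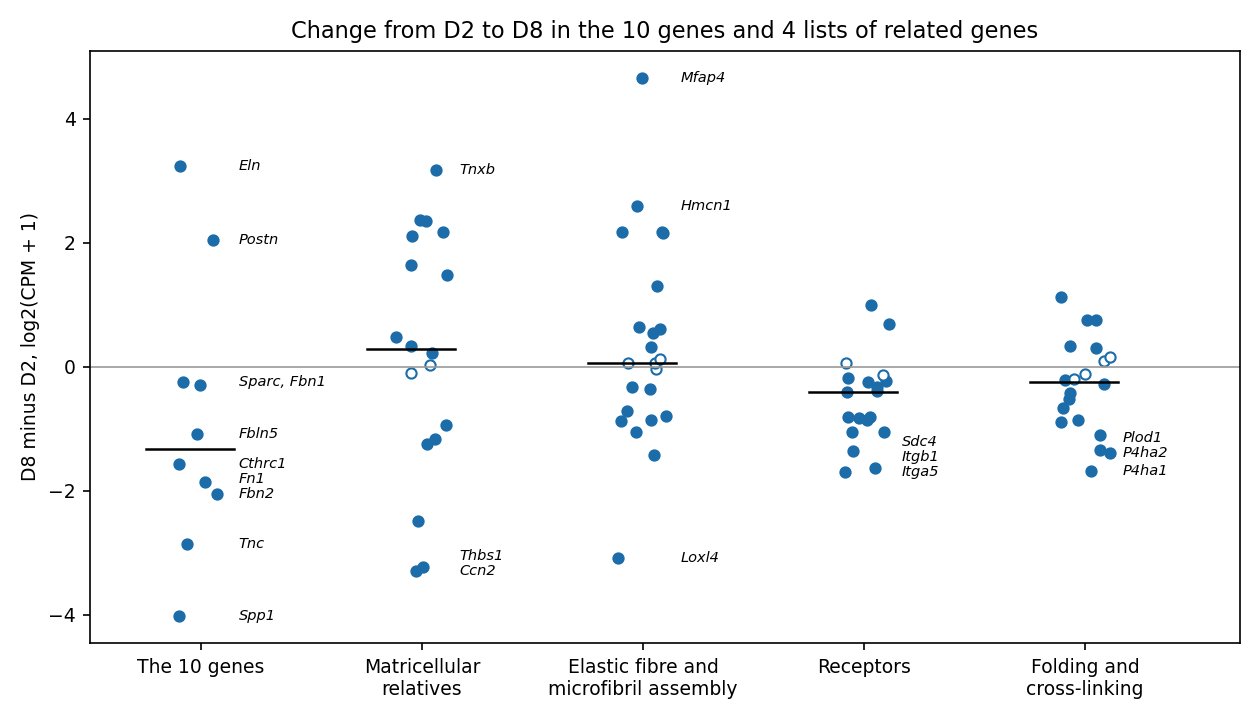
Change from D2 to D8 (vertical axis, difference of mean log2(CPM + 1)) of the 10 genes and of the tested genes in the 4 lists, with 1 point per gene, filled where limma's adjusted p was under 0.05, and a bar at each median. The receptors lie mostly below 0, with a median of -0.40, while the matricellular list spreads from -3.29 to 3.17 and the elastic fibre list from -3.08 to 4.66.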

How the data were processed

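Total RNA of the 8 libraries was sequenced on a BGISEQ-500, per the labels. The submitters' processing notes name Trimmomatic 0.39, featureCounts and mm10. No aligner or strand setting is given in the sources used here. In the deposited table the values are CPM: each library sums to 1000000 and its smallest step is the same for all genes, although the table is named for TPM. Values below 20 CPM were multiples of a hundredth of a read (within 0.1), and 55.1% to 56.4% were whole reads, so no count test was used. Depth was read from that step.

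The 15358 genes that reached 1 CPM in 2 or more libraries were tested as log2(CPM + 1) with limma 3.58.1 (R 4.3.3), with 1 mean per day, an eBayes trend and Benjamini-Hochberg adjustment over all tested genes. A fold change on this scale understates the change of low genes. The fit has 4 residual degrees of freedom. The tests were also run on simulated data in which few genes changed, with as many raised as lowered. That check cannot speak to the effect of the scaling. Tables and figures used Python 3.11.15, pandas 2.3.3, numpy 2.4.6 and matplotlib 3.10.9. Positions are from GENCODE (mm10), and 32063 of 32108 gene IDs had a symbol.

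The 10 genes, the lists and the tests were chosen with earlier results of these data known. Named besides the 10 are, of each list, the 3 called genes with the largest change in D8 against D2 and the called gene with the largest change in each step, the most abundant and defining markers, and the 2 nearest profiles of each gene. Some markers were named outside this rule, with their values known: Dcn, Pdgfra, Col3a1, Twist1, Twist2, Pdgfrb, Kdr, Egfl7, Col2a1 and Krt19. So were the list genes said above to be picked after their values were seen. The alternatives were other filters, a pseudocount of 0.1, other scalings, eBayes without trend, a replicate block, fits of single comparisons and leaving out each library.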

Additional observations from a re-analysis of the deposited data

How the results depend on the processing

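Over 16 alternatives for each change, 616 of 640 changes of the 10 genes kept their direction and side of the threshold, 8 lost their call, 5 gained one and 11 changed sign. The number of the 10 genes called lower in D8 against D6 was 2, but 0 without the filter on low values. Of all tested genes, 134 of 25416 were called lower in that comparison without the filter, and 674 of 15358 with it. The number also moved when 1 library was left out, as did the calls over all tested genes. The other counts were 3 to 4 higher and 4 to 5 lower in D4 against D2, 7 to 9 lower in D6 against D4, and 2 higher and 7 to 8 lower in D8 against D2. After quantile normalization these changes took the opposite sign: Sparc, D4 against D2 (-0.38), Fbn1, D8 against D6 (0.0166) and Fbn1, D8 against D2 (0.0924), and Fbn2, D4 against D2 (0.14). After median-of-ratios scaling, Sparc, D4 against D2 (-0.0666) and Eln, D6 against D4 (-0.0513) did so. On leaving out 1 library, sign changes were seen for Tnc, D8 against D6 (0.0493 without D6 replicate 2, and -0.3225 without D6 replicate 1), Fbn2, D4 against D2 (0.0747 without D4 replicate 1, and -0.173 without D4 replicate 2), Eln, D6 against D4 (-0.0132 without D4 replicate 1 and -0.012 without D6 replicate 2, up to 0.0581 without D4 replicate 2) and Eln, D8 against D6 (0.0007 without D8 replicate 2, and -0.1922 without D8 replicate 1). Of these changes the only ones called in the deposited scaling or the alternative were Fbn1, D8 against D2 and Sparc after quantile normalization. The cause was not tested. With only 1 library left in a day, its spread is assumed to be like that of the other days.

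The correlation of replicate differences between days was -0.10 to 0.21 over 6 pairs of days, highest for D4 with D8. Such values cannot show whether libraries of the same replicate number were paired. With the replicate block, the counts of the 10 genes were the same in every comparison (3 higher and 4 lower, 0 and 9, 1 and 2, 2 and 8), and calls over all genes went from 9606 to 9753 in D4 against D2 and from 1399 to 1593 in D8 against D6. Each mean of the 10 genes rests on at least 489 reads, and 2 libraries a day limit the precision.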
